A study of Mus musculus with 4 samples.

Results

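Zfp genes are the mouse genes named as numbered zinc finger proteins. They were picked here by symbol alone, from the annotated genes that had at least 1 listed transcript, and the Zfp36 family, whose members bind RNA through a different kind of finger, was left out. This gave 139 Zfp genes of 5059 annotated genes, with 236 Zfp transcripts of 8219 transcripts in all. The values come from RNA-seq of granulocyte-monocyte progenitors, the bone marrow precursors of neutrophils and monocytes. Progenitors of MST1-deficient mice (2 libraries) were set against progenitors of wild type mice (2 libraries), and each library held sorted cells pooled from 10 mice. Cells of both groups were kept in serum-containing medium with no drug. The sources used here do not give the strain, allele, age or sex of the mice. MST1 was taken to be the Hippo pathway kinase that Stk4 encodes, which the labels do not spell out.

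The deposited lists used here hold only transcripts whose identifiers mark them as outside the reference annotation, called unannotated transcripts. A value for a Zfp gene is therefore the sum over its unannotated transcripts, and its annotated transcripts were not analysed here. Levels are given in FPKM, fragments scaled to transcript length and library size, so that genes of different length can be set side by side. A transcript absent from a library's list was set to 0 there. In pooled cells, fewer cells with a transcript and less of it per cell cannot be told apart.

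Most Zfp proteins read DNA through arrays of C2H2 fingers, short loops that a zinc ion holds together through a pair of cysteines and a pair of histidines. Many also carry a KRAB domain, which recruits the corepressor Trim28 and, through it, the histone methyltransferase Setdb1 to silence retroelements and imprinted regions. The KRAB family has expanded in clusters of recent gene copies that differ between mammals. Other Zfp genes are old and single: some act at promoters or with chromatin complexes, and a few bind RNA or mark proteins with ubiquitin.

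Many members lay close together in the genome. Of the 139 genes, 28 lay on chromosome 7 (20.1% of Zfp genes, against 7.39% of the other annotated genes) and 22 on chromosome 17 (15.8%, against 5.13%). Within 500 kb of another member lay 69 of them. A coding model was at hand for 137, in which a C2H2 pattern occurred a median of 10 times and from 1 to 37 times. Zfp142 had the 37. Another gene matched the coding sequence of 33 members at 80% identity or more over 50% or more of its length, and these are called members with a close copy.

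The coding bases of 1 finger of 4 members are shown, because these genes carry the largest differences between the groups or are a pair of close copies that differed in opposite directions. They come from GENCODE vM21 coding sequence of GRCm38, read on the strand of the gene. Each is the first finger with the standard spacing, except that of Zfp994, which is its best match to the finger of Zfp758. Capitals mark the codons of the paired cysteines and paired histidines.
Zfp869, codons 182 to 209: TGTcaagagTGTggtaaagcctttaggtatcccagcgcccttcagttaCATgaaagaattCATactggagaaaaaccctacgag
Zfp324, codons 293 to 320: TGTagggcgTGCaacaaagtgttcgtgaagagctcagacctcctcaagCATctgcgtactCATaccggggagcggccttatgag
Zfp758, codons 267 to 294: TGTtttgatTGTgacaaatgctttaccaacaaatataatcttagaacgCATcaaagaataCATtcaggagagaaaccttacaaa
Zfp994, codons 521 to 548: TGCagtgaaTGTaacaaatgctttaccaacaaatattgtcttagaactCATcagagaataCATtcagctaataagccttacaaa
The fingers of Zfp758 and Zfp994 were identical at 70 of 84 bases (83.3%). The finger of Zfp869 matched that of Zfp324 at 43 of 84 bases (51.2%), and that of Zfp758 matched that of Zfp869 at 49 of 84 bases (58.3%).

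The libraries were of similar depth for these genes. The estimated counts of all listed transcripts came to 928977 and 1002807 in MST1-deficient replicates 1 and 2, against 1079382 and 947305 in wild type replicates 1 and 2. Of 18 progenitor markers, 4 had a listed transcript (Fcgr2b, Gfi1, Csf2rb and Kit), with summed levels of 62.3 and 65.6 FPKM in MST1-deficient libraries and of 53.2 and 64.1 FPKM in wild type libraries. These sums were nearly all Fcgr2b and Gfi1. Kit had 0.05 and 0.04 FPKM in MST1-deficient libraries, against 0.04 and 0 FPKM in wild type libraries. Csf2rb had 0 and 1.11 FPKM in MST1-deficient libraries, against 0.40 and 0.86 FPKM in wild type libraries. Mpo and Elane, also among the 18, were not listed, which says nothing of their annotated transcripts. The labelled cell type could therefore be checked only in part, and no transcript of Stk4 or Stk3 was listed to check the genotype. The summed levels of some markers of other cells lay apart between the groups. The 5 listed of 12 erythroid markers summed to 18.7 and 7.84 FPKM in MST1-deficient libraries, against 23.6 and 30.8 FPKM in wild type libraries. Without Sptb the other 4 summed to 10.8 and 4.93 FPKM in MST1-deficient libraries and 9.76 and 15.1 FPKM in wild type libraries, which overlap. The 6 listed of 13 lymphoid markers summed to 17.3 and 12.8 FPKM in MST1-deficient libraries, against 53.5 and 24.8 FPKM in wild type libraries. Without Klrc1 the other 5 overlapped too, at 13.3 and 8.42 FPKM in MST1-deficient libraries and 33.8 and 2.50 FPKM in wild type libraries. Sptb and Klrc1 were picked after their values were seen. The 4 listed of 9 mast cell, eosinophil and basophil markers summed to 113 and 126 FPKM in MST1-deficient libraries, against 151 and 190.4 FPKM in wild type libraries. The 4 listed of 11 neutrophil markers overlapped, at 98.3 and 106 FPKM in MST1-deficient libraries and 172 and 80.2 FPKM in wild type libraries. The 4 listed of 4 Y-linked genes summed to 23.4 and 14.8 FPKM in MST1-deficient libraries and to 3.60 and 0 FPKM in wild type libraries. All 4 stood higher in MST1-deficient libraries without overlap, as did 14.0% of all genes tested. Of them, Kdm5d and Uty were under 1 FPKM in both wild type libraries and were tested only through MST1-deficient libraries. Y-linked levels thus differed along with genotype. In the Zfp differences, the sex make-up of the pools, which is not given, cannot be told apart from genotype. Not listed in any library were Gata1 and Klf1 of the erythroid list, Cd3e, Rag1 and Il7r of the lymphoid list, Epx, Cpa3 and Mcpt8 of the mast cell, eosinophil and basophil list, and S100a9, Camp and Ngp of the neutrophil list. The part of these differences in the Zfp values was not tested.

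Unannotated transcripts of Zfp genes made up a small, similar share of every library. Their estimated counts summed to 13846 and 12858 in MST1-deficient libraries, and to 15874 and 12970.4 in wild type libraries. That was 1.69% and 1.55% of the counts of all annotated genes in MST1-deficient libraries, against 1.74% and 1.68% in wild type libraries. The groups overlapped, since the share in MST1-deficient replicate 1 lay just above that in wild type replicate 2. An exact permutation test of 2 libraries against 2 has 3 splits and cannot go below p = 0.333, so single values of this kind were not tested. Listed Zfp genes numbered 116 and 123 in MST1-deficient libraries, against 123 and 122 in wild type libraries, and 103 of the 139 were listed in all 4.

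Zfp genes were mostly low. Their mean level over the 4 libraries had a median of 1.58 FPKM (interquartile range 0.544 to 4.11 FPKM), against 1.90 FPKM for the other 4920 annotated genes (0.372 to 5.73 FPKM). At 10 FPKM or more stood 9 Zfp genes (6.47%), against 722 other genes (14.7%). Below 1 FPKM stood 49 Zfp genes (35.3%), against 37.7% of the other genes. The upper end of the range was thus thinner among Zfp genes, and the 12 highest held 36.4% of the summed Zfp level.

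**Figure D1:**
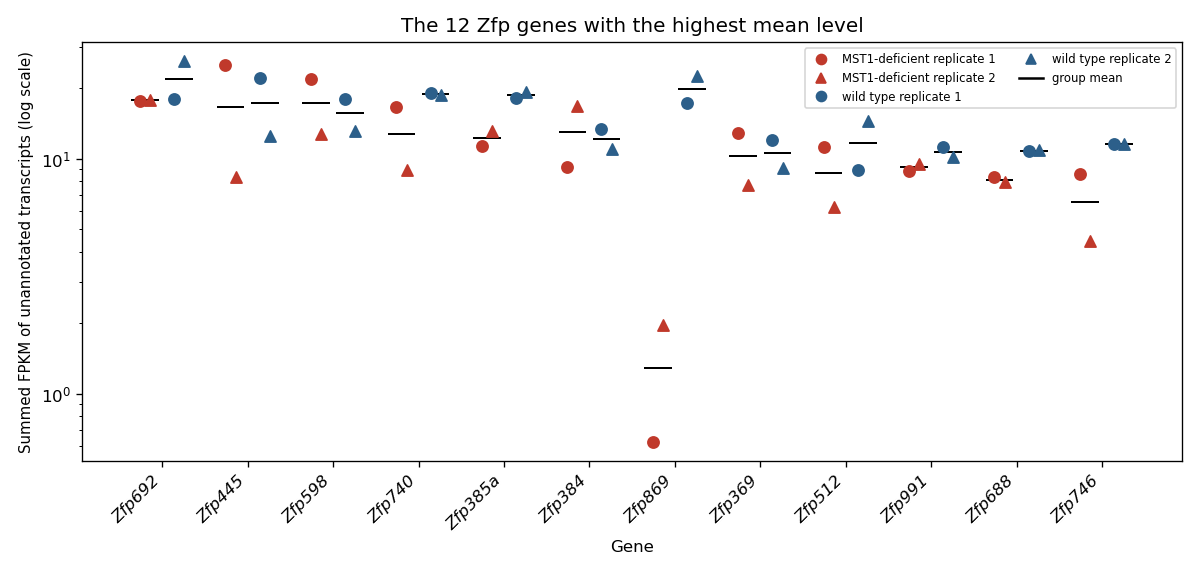
Summed FPKM of unannotated transcripts (log axis) of the 12 Zfp genes with the highest mean level; red symbols are MST1-deficient libraries, blue symbols wild type libraries, circles replicate 1, triangles replicate 2 and bars group means. Zfp869 is the one gene of the 12 whose groups stand far apart, at 0.62 and 1.96 FPKM in MST1-deficient libraries and at 17.2 and 22.5 FPKM in wild type libraries.

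Among the highest genes, Zfp692, whose human counterpart binds a promoter element that responds to the metabolite analogue AICAR, had 17.6 and 17.8 FPKM in MST1-deficient libraries, against 17.9 and 25.9 FPKM in wild type libraries. Zfp445, a KRAB protein that keeps imprinted regions methylated in the mouse embryo, had 25.02 and 8.33 FPKM in MST1-deficient libraries, against 22.1 and 12.5 FPKM in wild type libraries. Zfp598, the ubiquitin ligase that marks collided ribosomes, had 21.9 and 12.7 FPKM in MST1-deficient libraries, against 18.01 and 13.1 FPKM in wild type libraries. For Zfp445 and Zfp598 the replicates of a group lay further apart than the group means, so no difference stood out from the spread.

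Zfp384, known in human acute leukaemia as a fusion partner, also overlapped, at 9.19 and 16.8 FPKM in MST1-deficient libraries and 13.3 and 10.98 FPKM in wild type libraries. Zfp369, a relative of the neurotrophin receptor interacting factor and a close copy of Zfp110 (91.0% identity over 98.7% of its coding sequence), had 12.8 and 7.73 FPKM in MST1-deficient libraries, against 12.02 and 9.13 FPKM in wild type libraries. Zfp512 had 11.3 and 6.2 FPKM in MST1-deficient libraries, against 8.91 and 14.5 FPKM in wild type libraries. The groups overlapped in all of these.

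Of the highest 12, 7 lay lower in both MST1-deficient libraries without overlap, as did 18.8% of all genes tested: Zfp692, Zfp385a, Zfp688, Zfp991, Zfp740, Zfp746 and Zfp869. In Zfp692 the gap was narrow. Zfp385a, a partner of p53 that megakaryocytes need to mature in the mouse, had 11.4 and 13.1 FPKM in MST1-deficient libraries, against 18.1 and 19.3 FPKM in wild type libraries. Zfp688 had 8.32 and 7.94 FPKM in MST1-deficient libraries, against 10.8 and 10.9 FPKM in wild type libraries, and Zfp991 had 8.89 and 9.47 FPKM in MST1-deficient libraries, against 11.2 and 10.2 FPKM in wild type libraries. The coding sequence of Zfp991 is 99.5% identical to that of Zfp992, so how reads were divided between these copies is uncertain. Zfp740, Zfp746 and Zfp869 are described with the genotype differences. None of the 12 passed edgeR's test at the adjusted threshold of 0.05.

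Across all members, the differences between MST1-deficient and wild type progenitors were centred near 0. Of the 139 Zfp genes, 92 reached 1 FPKM in at least 2 libraries and were tested with edgeR's quasi-likelihood test on rounded estimated counts, adjusted over the 3221 annotated genes tested. The other 47 did not exceed 2.39 FPKM in any library. The median log2 fold change of the 92, MST1-deficient over wild type, was -0.005 (interquartile range -0.40 to 0.44), against 0.01 (-0.31 to 0.32) over all genes tested. Of the 92, 45 had a positive and 47 a negative value, and 58 lay within 1.5-fold.

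No Zfp gene passed the threshold (lowest edgeR adjusted p = 0.351), in a table where 0.0% of all genes tested passed it (lowest adjusted p = 0.112). At an unadjusted p under 0.05 stood 5 Zfp genes higher in MST1-deficient libraries (5.43%, against a background of 3.01% of all genes tested) and 4 lower (4.35%, against 2.64%). DESeq2 called 3 Zfp genes, Zfp324, Zfp758 and Zfp869 (3.26%, against 1.43%), and limma on log2(FPKM + 0.5) called 0 (against 0.186%). Of these, Zfp324 and Zfp758 met the filter only through the group in which they are listed. Among the genes at an unadjusted p under 0.05, Zfp821, Zfp970 and Zfp433 too met it only through the group in which they are high. For these 5, being high in that group was a condition of being tested. Without overlap between the groups, 14 Zfp genes lay higher in MST1-deficient libraries (15.2%, against 14.0%) and 22 lower (23.9%, against 18.8%). Nothing was called particular to Zfp genes from these shares, which rest on few genes and were not tested against the background.

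**Figure D2:**
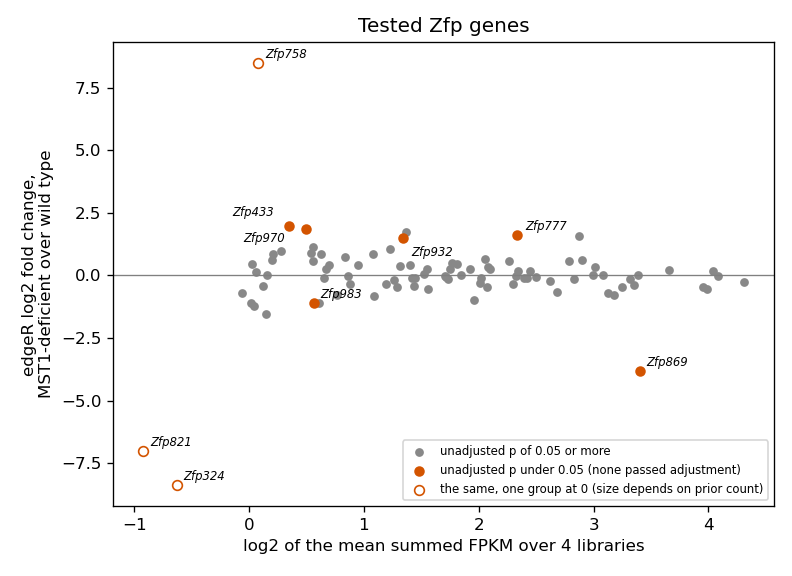
The edgeR log2 fold change, MST1-deficient over wild type, of the 92 tested Zfp genes against the log2 of their mean FPKM over 4 libraries. Most points lie near 0; the 9 genes with an unadjusted p under 0.05 are in orange and named, and open symbols are genes at 0 in one group, whose plotted size depends on the prior count.

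The gene with the largest difference that had values in all 4 libraries was Zfp869, with 1 unannotated transcript of 2466 bases on chromosome 8 (69705137 to 69717068, minus strand, GRCm38.p6). It had 10.0 and 39.0 estimated counts in MST1-deficient libraries, against 320.2 and 388 in wild type libraries. In FPKM it averaged 1.29 ± 0.948 in the MST1-deficient group, against 19.9 ± 3.72 in the wild type group (SD, n = 2 each). Both MST1-deficient libraries lay far below both wild type libraries. Its log2 fold change was -3.80 with a standard error of 0.74, that is 13.9-fold lower in MST1-deficient libraries. The edgeR adjusted p was 0.434 and limma's was 0.102, while DESeq2 gave an adjusted p of 5.74e-05. Leaving out MST1-deficient replicate 1 gave an edgeR log2 fold change of -3.13, and leaving out the other replicate of that group gave -5.09. This gene encodes a protein with 13 C2H2 patterns and is 80.02% identical to its nearest copy, Zfp868, over 68.8% of its coding sequence.

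Zfp324, on chromosome 7 (12965838 to 12974244, plus strand), was absent from both MST1-deficient lists and had 44.0 and 39.8 estimated counts in wild type libraries. Against a floor of 3 counts in each MST1-deficient library it was at least 13.4-fold lower (edgeR adjusted p = 0.351, DESeq2 adjusted p = 0.00816). Zfp821, on chromosome 8 (109695252 to 109724932, plus strand), showed the same pattern at a lower level, with 0 and 0 counts in MST1-deficient libraries and 17.1 and 15.9 in wild type libraries, at least 5.28-fold lower (edgeR adjusted p = 0.523). Neither gene has a close copy among annotated coding sequences. Zfp324 and Zfp821 met the filter only through their wild type libraries, so being high in both of these was a condition of being tested. A gene at 0 in both MST1-deficient and above 0 in both wild type libraries occurred among 0.373% of all genes tested, and these were the 2 such tested Zfp genes. Below the filter, Zfp280c showed it with no counts in MST1-deficient libraries and 11.8 and 69.7 estimated counts in wild type libraries, and Zfp606 with none in MST1-deficient libraries and 7.92 and 10.8 in wild type libraries.

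The other lower genes without overlap had smaller differences and no call by edgeR, DESeq2 or limma. Zfp983, the member with the most unannotated transcripts, had 1.22 and 0.87 FPKM in MST1-deficient libraries, against 1.96 and 1.87 FPKM in wild type libraries (log2 fold change -1.11, SE 0.33, edgeR adjusted p = 0.733). Zfp994 had 3.55 and 1.72 FPKM in MST1-deficient libraries, against 5.06 and 5.23 FPKM in wild type libraries (log2 fold change -0.96, SE 0.39). Zfp746, the parkin substrate PARIS, had 8.62 and 4.48 FPKM in MST1-deficient libraries, against 11.5 and 11.5 FPKM in wild type libraries (log2 fold change -0.80, SE 0.32). In Zfp994 and Zfp746 the MST1-deficient replicates lay further from each other than the higher of them lay from wild type, while the wild type replicates nearly coincided. Zfp740 had 16.6 and 8.93 FPKM in MST1-deficient libraries, against 19.1 and 18.7 FPKM in wild type libraries (log2 fold change -0.53, SE 0.27). It overlaps the antisense gene Csad, and because the sources used here name no strand setting, reads of the pair cannot be told apart. The same limit holds for Zfp74, Zfp142, Zfp143, Zfp219, Zfp335, Zfp346, Zfp384, Zfp426, Zfp608, Zfp687, Zfp708, Zfp961 and Zfp991, which overlap an antisense gene. Zfp644, Zfp708, Zfp783, Zfp984 and Zfp991 overlap a gene on their own strand, from which reads could not be told apart either. Zfp605 had 0.43 and 0.78 FPKM in MST1-deficient libraries, against 1.61 and 1.22 FPKM in wild type libraries (log2 fold change -1.09, SE 0.57, and -1.77 to -0.63 with 1 library left out at a time). It met the filter only through its wild type libraries, so being high in both of these was a condition of being tested.

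In the other direction, Zfp758 on chromosome 17 (22361430 to 22393909, plus strand) had 55.0 and 30.9 estimated counts in MST1-deficient libraries and was absent from both wild type lists. Against the floor of 3 counts it was at least 14.8-fold higher (edgeR adjusted p = 0.409, DESeq2 adjusted p = 0.00727). Zfp758 met the filter only through its MST1-deficient libraries. It was the 1 tested Zfp gene at 0 in both wild type and above 0 in both MST1-deficient libraries, a pattern found among 0.279% of all genes tested. Below the filter, Zfp46 showed it with 42.5 and 5.79 estimated counts in MST1-deficient libraries and none in wild type libraries, and Zfp966 with 6.79 and 9.69 counts in MST1-deficient libraries and none in wild type libraries. The coding sequence of Zfp758 is 83.4% identical to that of Zfp994 over 94.6% of its length. The printed fingers do not measure this, since that of Zfp994 was picked as the best match. Zfp994 lies on the same chromosome at 22197265 to 22225659, minus strand, and its own nearest copy is CT030661.1 (84.0% identity). Zfp758 was higher and Zfp994 lower in MST1-deficient libraries. Whether reads were divided differently between these copies was not tested.

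**Figure D3:**
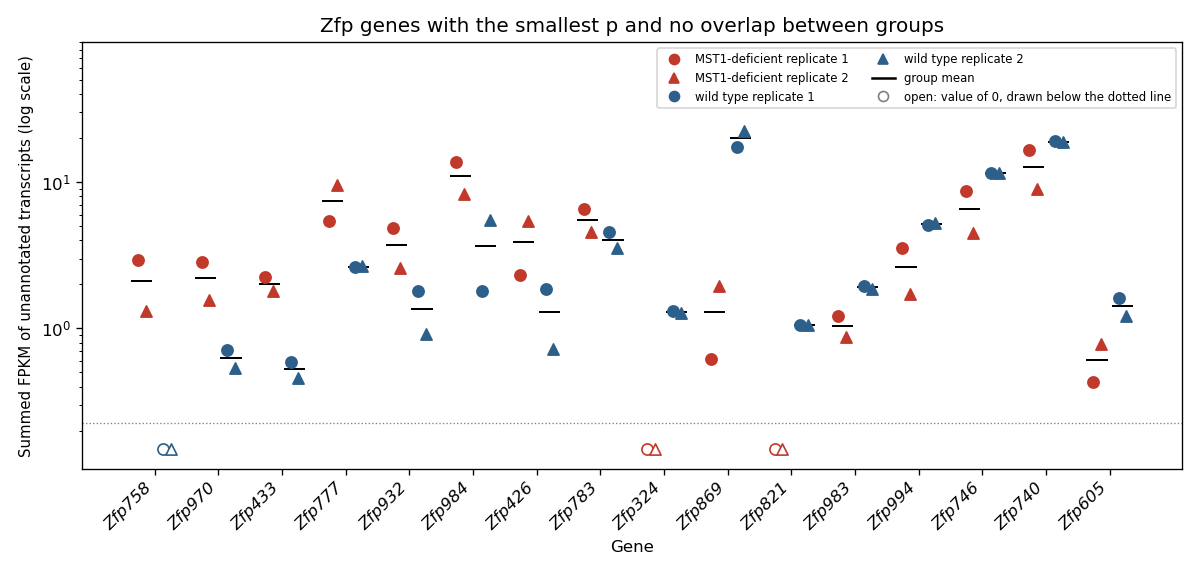
Summed FPKM (log axis) of the 8 higher and 8 lower Zfp genes with the smallest p among those without overlap between groups; red symbols are MST1-deficient libraries, blue symbols wild type libraries, circles replicate 1, triangles replicate 2, bars group means and open symbols below the dotted line values of 0. Zfp758, Zfp324 and Zfp821 have one group at 0, and Zfp869 has the widest gap among genes with values in all 4 libraries.

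Zfp970 had 2.84 and 1.56 FPKM in MST1-deficient libraries, against 0.71 and 0.54 FPKM in wild type libraries (log2 fold change 1.85, SE 0.41, edgeR adjusted p = 0.523). Zfp433 had 2.24 and 1.80 FPKM in MST1-deficient libraries, against 0.59 and 0.46 FPKM in wild type libraries (log2 fold change 1.95, SE 0.57). Zfp932, a KRAB protein that represses endogenous retroviruses in the mouse, had 4.84 and 2.59 FPKM in MST1-deficient libraries, against 1.80 and 0.91 FPKM in wild type libraries (log2 fold change 1.49, SE 0.47). All 3 were low and stood clear of wild type in both MST1-deficient libraries. Zfp970 and Zfp433 met the filter only through their MST1-deficient libraries, so being high in both of these was a condition of being tested. All 3 also have a close copy: Gm14295 for Zfp970 (88.5% identity), Gm32687 for Zfp433 (99.8%) and Gm15446 for Zfp932 (85.2%).

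Zfp777 had 5.40 and 9.52 FPKM in MST1-deficient libraries, against 2.61 and 2.65 FPKM in wild type libraries (log2 fold change 1.61, SE 0.49, edgeR adjusted p = 0.757). Zfp984 had 13.7 and 8.28 FPKM in MST1-deficient libraries, against 1.79 and 5.54 FPKM in wild type libraries (log2 fold change 1.56, SE 0.64), and is 97.2% identical to Gm13212. Zfp426 had 2.32 and 5.41 FPKM in MST1-deficient libraries, against 1.87 and 0.72 FPKM in wild type libraries (log2 fold change 1.71, SE 0.75). In Zfp984 and Zfp426 the replicates of each group differed by more than 1.5-fold. With 1 library left out at a time, the log2 fold change ran from 0.92 to 2.66 in Zfp984, from 0.74 to 2.45 in Zfp426 and from 0.95 to 2.06 in Zfp777. Zfp783, which RefSeq lists as a non-coding gene and which overlaps Zfp956 on the same strand, had 6.50 and 4.59 FPKM in MST1-deficient libraries, against 4.53 and 3.56 FPKM in wild type libraries (log2 fold change 0.59, SE 0.27). None of the 8 higher genes passed the edgeR threshold. The gap between the groups was narrow in Zfp783, with 4.59 FPKM in the lower MST1-deficient library beside 4.53 FPKM in the higher wild type library.

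Beside the 8 higher and 8 lower genes plotted, 6 tested members stood higher without overlap, with log2 fold changes of 0.57 to 1.06. Another 14 stood lower, with log2 fold changes of -1.54 to -0.03. None of these had an unadjusted p under 0.05.

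Members with a close copy made up most of the genes at an unadjusted p under 0.05. Of 24 tested members with a close copy, 6 stood there (25%): Zfp433, Zfp758, Zfp869, Zfp932, Zfp970 and Zfp983. Of 66 tested members without one, 3 stood there (4.55%), beside 5.65% of all genes tested. Of the 6, Zfp433, Zfp758 and Zfp970 met the filter only through their MST1-deficient libraries. Of the 3, Zfp324 and Zfp821 met it only through their wild type libraries. Both shares thus rest in part on genes that were tested because they are high in one group. The median size of the log2 fold change was 0.63 with a close copy and 0.38 without, at median levels of 1.47 and 1.64 FPKM. This comparison was made after the values were seen and was not tested.

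The members with a known role, taken list by list, held no call. Of 21 genes on a list for the silencing of retroelements and imprinted regions, 8 were listed and 6 tested, with a median log2 fold change of 0.37. Zfp932 was the 1 member at an unadjusted p under 0.05. Zfp382 lay narrowly lower, at 2.94 and 3.20 FPKM in MST1-deficient libraries, against 3.65 and 3.50 FPKM in wild type libraries. Zfp445, Zfp961, Zfp74 and Zfp263 overlapped, with Zfp961 at 4.28 and 3.48 FPKM in MST1-deficient libraries and 4.51 and 1.36 FPKM in wild type libraries. Zfp317 and Zfp708, the second a repressor of retrotransposons in the mouse, did not reach the filter, and Zfp708 had 3.95 estimated counts in wild type replicate 1 and 0 in the other libraries.

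Of 15 genes on a list for blood cell roles, 7 were listed and 6 tested, with a median log2 fold change of -0.22 and none at an unadjusted p under 0.05. Zfp335, needed for T cell maturation in the mouse, had 11.2 and 5.53 FPKM in MST1-deficient libraries, against 11.1 and 6.05 FPKM in wild type libraries, with replicates that lay apart to a like degree in both groups. Zfp217, a partner of corepressor complexes known from human breast cancer, had 4.37 and 8.30 FPKM in MST1-deficient libraries, against 10.3 and 11.96 FPKM in wild type libraries. With Zfp385a it was 1 of the 2 listed blood genes whose groups did not overlap, both lower in MST1-deficient libraries, as were 18.8% of all genes tested. Zfp608 was unsteady within groups, at 0.15 and 1.51 FPKM in MST1-deficient libraries and 4.45 and 0 FPKM in wild type libraries.

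Of 18 genes on a list for promoter and chromatin roles, 12 were listed and 7 tested, with a median log2 fold change of 0.36 and none at an unadjusted p under 0.05. Zfp143, an activator that binds many promoters, had 5.88 and 4.20 FPKM in MST1-deficient libraries, against 2.77 and 3.80 FPKM in wild type libraries. Zfp592, a partner of the chromatin reader ZMYND8 in human cells, had 1.96 and 1.76 FPKM in MST1-deficient libraries, against 1.47 and 0.63 FPKM in wild type libraries. Both stood higher without overlap, as did 14.0% of all genes tested. Zfp217, which is also on this list, was its 1 tested member lower without overlap (18.8% of all genes tested). Zfp219, below the filter and not tested, had 1.10 and 0.54 FPKM in MST1-deficient libraries, against 0.08 and 0.29 FPKM in wild type libraries. Zfp687, which works with Zfp592, overlapped at 6.0 and 3.48 FPKM in MST1-deficient libraries and 2.33 and 5.09 FPKM in wild type libraries. Zfp644, a partner of the histone methyltransferase G9a, overlapped at 4.74 and 4.0 FPKM in MST1-deficient libraries, beside 4.46 and 6.51 FPKM in wild type libraries.

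Of 12 genes on a list for RNA binding and ubiquitin, 6 were listed and 4 tested, with a median log2 fold change of -0.09, and the groups of all 4 overlapped. Zfp207, a spindle protein, had 6.26 and 3.54 FPKM in MST1-deficient libraries, against 5.92 and 4.37 FPKM in wild type libraries. Zfp346, which binds double-stranded RNA, had 4.61 and 8.45 FPKM in MST1-deficient libraries, against 8.68 and 6.74 FPKM in wild type libraries. Zfp638, which in human cells helps silence retroviral DNA that has not integrated, had 2.87 and 1.66 FPKM in MST1-deficient libraries, against 1.97 and 3.12 FPKM in wild type libraries. The library with the highest level differed from gene to gene.

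The corepressors and chromatin factors with which KRAB proteins work were looked at as a list of 34 symbols, of which 19 were listed and 15 tested. The 34 include Tasor also under its older symbol, Fam208a. Their levels summed to 133 and 126 FPKM in MST1-deficient libraries, against 131 and 132 FPKM in wild type libraries, and the median log2 fold change was 0.06. None passed the edgeR threshold and none had an unadjusted p under 0.05. DESeq2 called 0 of them, and limma 0. Setdb1, the methyltransferase that KRAB proteins recruit through Trim28, had 0.85 and 0.80 FPKM in MST1-deficient libraries, against 1.55 and 2.23 FPKM in wild type libraries. Tasor, of the HUSH silencing complex, had 3.33 and 3.35 FPKM in MST1-deficient libraries, against 4.57 and 5.01 FPKM in wild type libraries. These were the 2 tested genes of the list without overlap, both lower in MST1-deficient libraries, where 18.8% of all genes tested lay lower and 14.0% higher in this way. They were picked after their values were seen. Setdb1 met the filter only through its wild type libraries, so being high in both of these was a condition of being tested. Below the filter and not tested, Hells (0.31 and 0.42 FPKM in MST1-deficient libraries, against 0.18 and 0.14 FPKM in wild type libraries) and Atf7ip (0.65 and 0.58 FPKM in MST1-deficient libraries, against 0.29 and 0.08 FPKM in wild type libraries) stood higher without overlap. Mphosph8 stood lower, at 0.22 and 0.18 FPKM in MST1-deficient libraries, against 0.32 and 0.61 FPKM in wild type libraries. Trim28 itself had no listed transcript.

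Most Zfp genes had a single unannotated transcript. There were 89 genes with 1 (64.0%), 23 with 2, 15 with 3, 7 with 4 and 5 with more, so that 50 (36.0%) had several, against 33.9% of the other genes. The mean was 1.70 per gene, against 1.57. Zfp983 had 7, Zfp991 had 6, and Zfp384, Zfp688 and Zfp783 had 5 each. Lengths were compared in genes that have a GENCODE vM21 transcript, which leaves out Zfp783. The 231 such Zfp transcripts were long, with a median of 4171 bases (799 to 16658). The median was 3886 bases over 7555 transcripts of the other annotated genes. Of the 231, 132 (57.1%) were longer than every GENCODE vM21 transcript of their gene, against 44.7% for the other genes. Zfp970 was an example, with an unannotated transcript of 7431 bases beside a longest GENCODE transcript of 1569 bases.

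At the level of single transcripts, 141 of the 236 were tested and none passed (lowest edgeR adjusted p = 0.398, with 0.0% of 4661 transcripts passing). Higher in MST1-deficient libraries at an unadjusted p under 0.05 were 6 (4.26%, against a background of 2.27%), and lower were 3 (2.13%, against 2.98%), where 5.26% of all transcripts stood in either direction. DESeq2 called 5, of Zfp758, Zfp984, Zfp324, Zfp715 and Zfp869 (3.55%, against 2.21%), and limma 0 (against 0.129%). Those of Zfp758, Zfp984, Zfp324 and Zfp715 met the filter only through the group in which they are high. The single transcripts of Zfp433, Zfp970 and Zfp821 did so too. Without overlap stood 16 higher (11.3%, against 13.7%) and 23 lower (16.3%, against 19.9%). These shares were not tested against the background. At 0 in both wild type libraries and above 0 in both MST1-deficient libraries were 2 (against 0.772%), of Zfp715 and Zfp758. The opposite held for 2 (against 1.18%), of Zfp324 and Zfp821.

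In genes with several transcripts, 2 forms stood out beyond the genes already described. Zfp715 had a form of 4255 bases with 46.0 and 39.7 estimated counts in MST1-deficient libraries and none in wild type libraries, at least 14.8-fold higher (edgeR adjusted p = 0.398, DESeq2 adjusted p = 0.0284). It made up 40.5% and 45.02% of the FPKM of the gene in MST1-deficient libraries and none in wild type libraries, where the form of 6108 bases was the one listed. Zfp984 had a form of 2858 bases with 61.9 and 62.2 estimated counts in MST1-deficient libraries, against 2.92 and 0 in wild type libraries (log2 fold change 5.37, SE 1.39, edgeR adjusted p = 0.611). With so few counts in wild type libraries the size of that change is loosely set, and leaving out wild type replicate 2 gave 4.50. These forms of Zfp715 and Zfp984 met the filter only through MST1-deficient libraries, so being high in both of these was a condition of being tested.

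In Zfp385a the balance of forms differed between the groups in both replicates, as shares without a test. The form of 2240 bases held 43.6% and 56.8% of the gene in MST1-deficient libraries, against 75.2% and 81.0% in wild type libraries. The form of 2627 bases held 56.4% and 43.2% in MST1-deficient libraries, against 20.1% and 19.0% in wild type libraries. In level, the shorter form had 4.95 and 7.45 FPKM in MST1-deficient libraries, against 13.6 and 15.6 FPKM in wild type libraries (log2 fold change -1.15, SE 0.46, edgeR adjusted p = 0.9995). The longer form had 6.40 and 5.67 FPKM in MST1-deficient libraries, against 3.63 and 3.67 FPKM in wild type libraries. Both forms stood without overlap, in opposite directions, and neither passed the test.

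**Figure D4:**
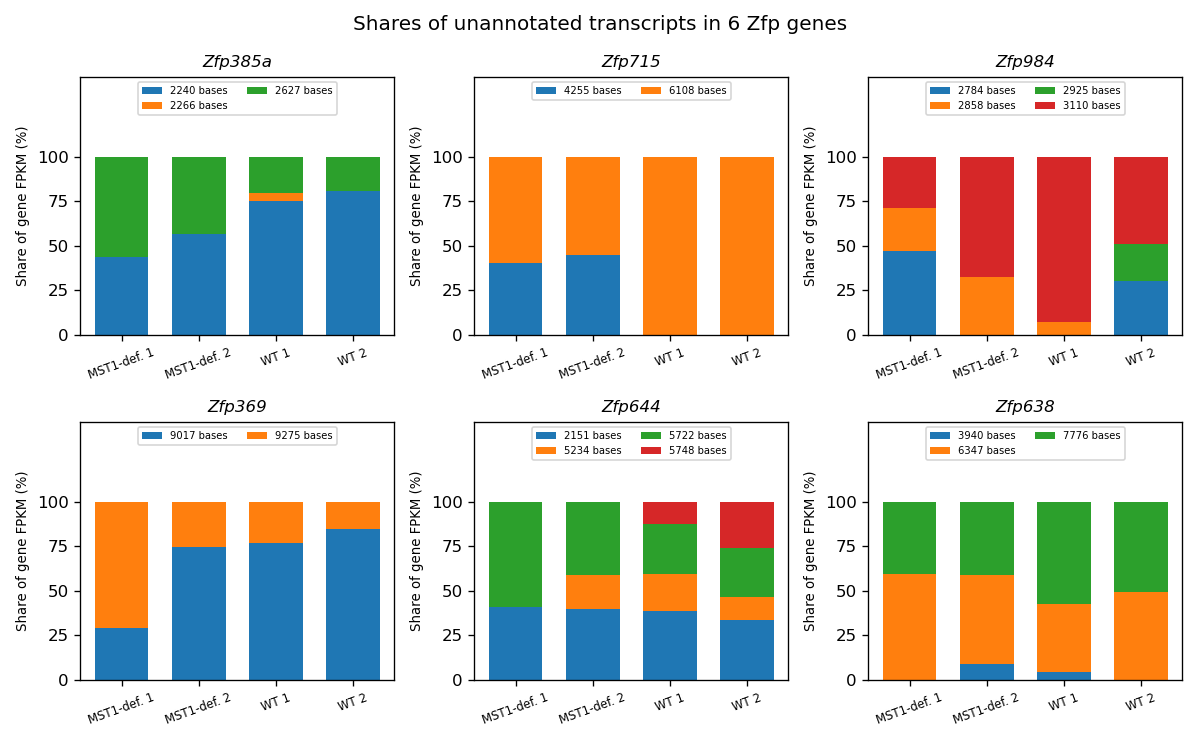
Share of each unannotated transcript in the summed FPKM of its gene (percent), for 6 Zfp genes in MST1-deficient replicates 1 and 2 and wild type replicates 1 and 2; colours are transcripts, named by length in bases. Zfp385a and Zfp715 show a balance that differs between the groups in both replicates, while Zfp369 differs in MST1-deficient replicate 1 alone.

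In other genes the shares differed between replicates. The form of 9275 bases of Zfp369, picked after its values were seen, held 70.7% and 25.4% in MST1-deficient libraries, against 22.8% and 15.1% in wild type libraries, so that the difference rested on 1 library. The form of 3015 bases of Zfp384 held 14.8% and 54.0% in MST1-deficient libraries and 45.8% and 14.0% in wild type libraries. By contrast, the leading form of Zfp445, of 6274 bases, was steady at 70.4% and 71.4% in MST1-deficient libraries and 74.3% and 76.3% in wild type libraries, although the level of the gene varied.

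Of 49 genes with several transcripts and a value in every library, 17 had the same leading transcript in all 4. In 2 genes the leading transcript by FPKM was the same in both libraries of each group and differed between the groups. In Zfp644 the form of 5722 bases led with 58.9% and 41.0% in MST1-deficient libraries, against 28.3% and 27.7% in wild type libraries, where the form of 2151 bases led with 38.6% and 33.5%. In Zfp638 the form of 6347 bases led with 59.6% and 50% in MST1-deficient libraries, against 38.6% and 49.4% in wild type libraries, where the form of 7776 bases led with 57.4% and 50.6%. The margins in Zfp638 were narrow in wild type replicate 2. By estimated counts, which do not correct for length, neither gene met this description.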

How the data were processed

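Per the labels' protocols, mRNA was enriched on oligo-dT beads and its cDNA was PCR-amplified. The authors deposited, for each library, estimated counts (expected counts) and FPKM of unannotated transcripts, per the file headers. Per the submitters' processing notes, the genome was mm10. The sources used here name no assembler or estimator. Estimated counts were summed per gene and rounded. Genes and transcripts needed 1 FPKM in at least 2 of 4 libraries. A gene or transcript at 0, or otherwise under 1 FPKM, in both libraries of one group could meet this only through the other group. The test was that of edgeR 4.0.16 (quasi-likelihood, TMM factors, 2-sided, Benjamini-Hochberg over all features tested, threshold 0.05), under R 4.3.3, with no covariate. DESeq2 1.42.0, limma 3.58.1 on log2(FPKM + 0.5), other scalings, pseudocounts (0.1 and 1) and filters, a replicate block, and fits that leave out 1 library were alternatives. A fold against a group at 0 is a lower bound set by a floor of 3 counts in each library, with the counts of the other group taken as observed. Floors cover counting error only, since no molecular identifiers were used. Symbols and positions came from RefSeq GRCm38.p6, the same build as mm10, in which 5051 of 5059 gene numbers matched, and coding sequences from GENCODE vM21, compared with BLAST 2.17.0.

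Tested on simulated data, edgeR called 27% of 4-fold and 73% of 16-fold changes among 3221 genes, and 1% and 15% among 4661 transcripts. Each simulated table held 100 changes of each size, equally up and down. The shares called hold for that setting, whereas edgeR made no call in the real tables. Library totals implied by FPKM, count and length ran from 6913595 to 8518550. P-values measure the spread between 2 pools per group, whose preparation dates were not given. Standard errors were derived from the F statistic.

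The members and lists were chosen with earlier results of these data known. Named were the 12 highest Zfp genes, the 8 higher and 8 lower without overlap and with the smallest p, the 5 with the most transcripts, members of 4 role lists, tested genes listed in one group only, the 6 higher and 6 lower transcripts chosen the same way, and genes whose leading transcript differed.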

Additional observations from a re-analysis of the deposited data

How the results depend on the processing

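Under edgeR, 0 Zfp genes and 0 Zfp transcripts passed the adjusted threshold in all fits run, and limma called 0 with each pseudocount, while DESeq2 called 3 genes and 5 transcripts. Over all genes tested, DESeq2 called 46, limma 6, 2 and 7 (pseudocounts 0.5, 0.1 and 1) and edgeR with genes above 0 in all 4 libraries called 1. Over all transcripts, DESeq2 called 103, limma 6, 4 and 6, and that filter 2. Zfp genes lower at an unadjusted p under 0.05 numbered 4, against 2 with limma and pseudocount 0.1 and 7 with no filter; lower transcripts numbered 3, against 6 with no filter, and higher transcripts 6, against 3 with limma and pseudocount 0.1. With each library left out, higher genes numbered 3 to 5 (3 without MST1-deficient replicate 2), lower genes 3 to 8 (7 without MST1-deficient replicate 1 and 8 without replicate 2), higher transcripts 3 to 8 (3 without MST1-deficient replicate 1) and lower transcripts 2 to 13 (7 without MST1-deficient replicate 1 and 13 without replicate 2). The cause was not tested. A fit that keeps 1 library in a group assumes that it varies like the others. Same-numbered libraries deviated together only weakly (correlation 0.13 over genes and 0.13 over transcripts, from 2 pairs), and the labels tie them by number alone. With the replicate block, 4 genes were higher and 4 lower, 5 transcripts higher and 3 lower, and 0 passed. The leading transcript differed between the groups in 2 genes by FPKM and in 0 by estimated counts. At 1 FPKM or more, 126 and 123 Zfp transcripts were listed in MST1-deficient libraries, against 127 and 112 in wild type libraries, in place of 190 and 197, against 197 and 191. Of 356 alternative values of the 28 single genes and transcripts followed, 348 kept their direction and side of the threshold, 8 passed it (all 8 with DESeq2) and 0 changed sign. These 28 were picked for a small p and no overlap between groups in these same libraries. Their kept direction was largely set by that choice and adds no support. With 2 pools per group, 73% of simulated 16-fold changes in genes were called and 27% of 4-fold changes, which limits what a missing call shows. Those shares are for a table with 100 changes of each size and may differ in the real one.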
